A study of Mus musculus with 5 samples.

Results

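The genes described here encode 52 DNA-binding transcription factors of the Forkhead, T-box, Sox and Gata families, out of 20807 autosomal protein-coding genes of the mouse (GENCODE M21 annotation of mm10). They were taken by name: 19 Forkhead, 12 T-box, 16 Sox and 5 Gata genes. A gene's CpGs were those inside it or up to 2 kb upstream that had at least 10 methylation calls in each of 5 libraries on the allele described. CpGs within 1 kb of a start site of the gene's own protein-coding transcripts were kept apart from the rest. In all, 47 members had such CpGs, and Foxj1, Gata5, Sox15, Sox18 and Tbx6 had none.

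The assay was eRRBS, an enhanced form of reduced representation bisulphite sequencing. It converts MspI fragments, mostly rich in CpG, with bisulphite and sequences them. Female fibroblasts of the mouse embryo (MEFs) had been taken at E13.5 from 129/C57 dams crossed with CAST sires, and every library carried the Xist-deltaA allele on 1 X. Control libraries (n = 3) were Setdb1+/+ with a nonsilencing shRNA, and Setdb1 depleted libraries (n = 2) were Setdb1+/gt, where gt is a gene trap, with an shRNA against Setdb1, an H3K9 methyltransferase. Both groups had been transduced with retrovirus and selected with puromycin. Genotype and shRNA differed together, so their parts cannot be told apart, and the level of Setdb1 was not measured here. Reads were split by strain differences into the domesticus allele, from the dam, and the castaneus allele, from the sire. The cross was made in 1 direction, so strain and parental origin cannot be told apart.

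These families set cell identity during development. Forkhead factors bind DNA through a winged helix and include pioneer factors that open chromatin, T-box factors pattern the mesoderm, heart and limbs, Sox factors bend DNA through an HMG box and act in stem cells and many lineages, and Gata factors direct blood, heart and endoderm programmes through zinc fingers. Most of their genes lie in long CpG-rich regions that are known to be kept free of DNA methylation by Polycomb complexes in tissues where the gene is silent. Setdb1 is known to act with DNA methylation at retroelements and some genes.

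The CpGs on which the results turn are shown in the mm10 (GRCm38) reference, on the strand of the gene, with each CpG that was measured on at least 1 allele in capitals. The first group holds the members' CpG clusters, runs of at least 3 measured positions with gaps of at most 100 bp, that were chosen for a difference between alleles or between groups or for high methylation at a start site. The clusters of Sox21 and Sox6 are not shown because over 50% of each lies in a UTR, nor are those of Sox10, Sox7 and Foxa3, to keep the group short. Foxp2 lies at chr6:14899957-14900045, upstream of the gene, Foxl1 at chr8:121127962-121128086 in its coding exon, where the gene Gm20388 overlaps, Sox5 at chr6:144466858-144466956 in an intron, and Tbr1 at chr2:61807146-61807274 in an intron. Tbx3 lies at chr5:119668774-119668882 upstream, where the antisense gene Tbx3os1 overlaps, Tbx4 at chr11:85885891-85886002 upstream, Tbx5 at chr5:119837408-119837481 in an intron, and Sox4 at chr13:28954938-28955070 upstream.
Foxp2: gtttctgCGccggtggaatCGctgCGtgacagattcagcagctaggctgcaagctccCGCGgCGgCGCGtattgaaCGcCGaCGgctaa
Foxl1: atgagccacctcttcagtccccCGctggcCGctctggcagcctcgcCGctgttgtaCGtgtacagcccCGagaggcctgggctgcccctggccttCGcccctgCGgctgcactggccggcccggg
Sox5: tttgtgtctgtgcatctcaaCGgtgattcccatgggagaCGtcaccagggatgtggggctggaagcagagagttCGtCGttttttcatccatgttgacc
Tbr1: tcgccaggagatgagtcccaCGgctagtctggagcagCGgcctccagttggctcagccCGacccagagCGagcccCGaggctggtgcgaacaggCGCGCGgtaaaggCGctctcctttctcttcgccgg
Tbx3: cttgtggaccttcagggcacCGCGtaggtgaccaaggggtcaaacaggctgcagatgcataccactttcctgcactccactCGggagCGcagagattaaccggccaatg
Tbx4: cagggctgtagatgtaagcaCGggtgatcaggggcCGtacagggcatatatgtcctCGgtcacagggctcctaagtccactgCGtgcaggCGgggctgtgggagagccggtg
Tbx5: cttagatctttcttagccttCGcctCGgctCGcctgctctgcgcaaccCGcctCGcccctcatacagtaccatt
Sox4: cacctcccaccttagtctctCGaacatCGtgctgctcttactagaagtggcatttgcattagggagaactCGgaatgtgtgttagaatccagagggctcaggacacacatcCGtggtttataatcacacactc
For contrast, windows are shown for the 2 members with the lowest control mC at start sites as the mean of both alleles, among those with 5 or more positions on each, upstream of Sox11 at chr12:27343044-27343122 and in a coding exon of Tbx2 at chr11:85833131-85833225.
Sox11: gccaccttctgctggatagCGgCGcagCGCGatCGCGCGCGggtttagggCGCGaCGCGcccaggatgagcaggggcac
Tbx2: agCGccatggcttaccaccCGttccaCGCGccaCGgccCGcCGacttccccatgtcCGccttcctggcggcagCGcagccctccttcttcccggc

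An allele had 9440874 to 10558931 CpG calls in each library, of which 27.8 to 29.6% were methylated. The value used throughout is mC, the methylated percentage of the calls summed over a region. The libraries of 1 group differed by more than counting error, with a mean chi-square per gene region of 3.98 to 5.42 for pairs of libraries where counting error alone gives 1. The labels do not say whether replicates came from separate embryos, so p-values measure the spread between these libraries, which may be technical. Promoters of fibroblast markers were measured at 2 (domesticus) and 3 (castaneus) of 8 genes, and all but that of Thy1 had mC near 0. The promoters of the epithelial, endothelial and neural markers that were measured (2 of 5, 1 of 4 and 1 to 2 of 4) lay between 0 and 3.20% as well, so these promoters did not separate the cell types. Of 4 blood marker promoters 1 was measured, that of Runx1, with 24.5% domesticus and 0.228% castaneus mC in controls. In bulk DNA, a change in the share of cells that carry a mark and a change within each cell cannot be told apart.

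At start sites, most members were nearly free of methylation on both alleles. With 34 members measured on each allele at 3 or more positions, where a position is the cytosine of 1 strand, the median control mC was 0.916% (domesticus) and 0.829% (castaneus). Over all genes measured, 6993 and 7295, the medians were 0.227 and 0.225%. Below 5% mC lay 27 of 34 domesticus and 26 of 34 castaneus members, against 87.3 and 87.6% of all genes. Members and all genes were compared as a description, with no test.

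The lowest start-site values were near the limit of detection. Foxp1, a repressor that acts in immune and neural lineages, had 0 methylated calls of 1588 in its 5 libraries on the domesticus allele, which allows up to 0.189% from counting error. Sox11, a factor of embryonic neurons and mesenchyme, had domesticus mC of 0, 0.118 and 0% (control) and 0.0764 and 0.174% (depleted), and 0.0461% ± 0.0593 (SD, n = 3) on the castaneus allele in controls. The metabolic regulator Foxk1 had 0.0581% ± 0.101 (SD, n = 3) on the domesticus allele. Gata2, required for blood stem cells, and Gata6, an endoderm and heart factor, had no methylated castaneus call in any control and 1 of 935 and 4 of 1744 calls methylated over the 5 libraries.

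The members with mC of 5% or more at start sites were 7 on the domesticus allele and 8 on the castaneus allele. On the domesticus allele 5 of the 7 were T-box genes, Tbx4, Tbr1, Tbx1, Eomes and Tbx21, of 9 T-box genes measured, and the median over these 9 was 6.74%. On the castaneus allele, where 10 T-box genes were measured, Tbx4, Tbr1 and Tbx1 were above 5% and the T-box median was 1.25%. The other members above 5% were Foxl1 and Sox7 on both alleles and Foxa2, Foxa3 and Gata3 on the castaneus allele.

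Tbx4, which marks the hindlimb and lung mesenchyme, had the highest start-site mC among members with 3 or more positions there. The domesticus values of Tbx4 were 54.8, 59.8 and 51.7% (control) and 57.5 and 54.0% (depleted), and its castaneus values were 44.9, 45.1 and 40.2% and 53.2 and 43.7%. The groups overlapped on both alleles. The measured CpGs all lie in the upstream window shown, at -476 bp from the start site. At Sox13, where fewer positions were measured (1 domesticus and 2 castaneus), the start-site control means were 76.1 and 86.0%.

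Foxl1, a factor of the gut mesenchyme, followed. On the domesticus allele it had 44.9, 39.2 and 49.6% (control) and 45.5 and 45.3% (depleted), and on the castaneus allele 37.3, 30.0 and 37.0% and 31.0 and 31.0%. Tbr1, a factor of cortical neurons, had domesticus values of 41.4, 49.1 and 36.2% (control) and 28.1 and 44.7% (depleted). Its castaneus values were 36.4, 31.7 and 32.9% and 24.9 and 36.1%. Depleted 1 was the lowest library of Tbr1 on both alleles, and the groups of both genes overlapped on both alleles.

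Within these genes, methylation was local. At Tbr1 the cluster shown, in an intron 948 bp from a start site, had 48.1% domesticus and 38.5% castaneus mC in controls, while a cluster of 5 positions at -756 bp from a start site, upstream of it (chr2:61805491-61805521) had 6.45 and 3.34%. At Sox7, an endothelial factor, a coding exon cluster 337 bp from a start site (chr14:63943971-63944049) had 16.0 and 20.9%, and an upstream cluster at chr14:63943078-63943141 had 6.47% on the domesticus allele. Tbx1, a factor of the pharyngeal arches, had 37.8% castaneus mC in an intron cluster at -63 bp from a start site (chr16:18588833-18588909), and 1.11% domesticus mC in a coding exon cluster 177 bp from one (chr16:18586729-18586855). These 2 Tbx1 clusters were each measured on 1 allele only.

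Away from start sites, members had far lower mC than other genes. The median over 29 members was 11.6% on the domesticus allele and over 28 members 8.45% on the castaneus allele, where all genes (4560 and 4777) had medians of 75.1 and 74.8%. Reaching 50% mC were 5 of 29 and 4 of 28 members, against 71.5 and 71.1% of all genes. Below 5% were 8 of 29 and 11 of 28, against 9.93 and 10.5%. The members' CpGs lay closer to start sites than those of all genes, so the distances were compared in bins.

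**Figure D1:**
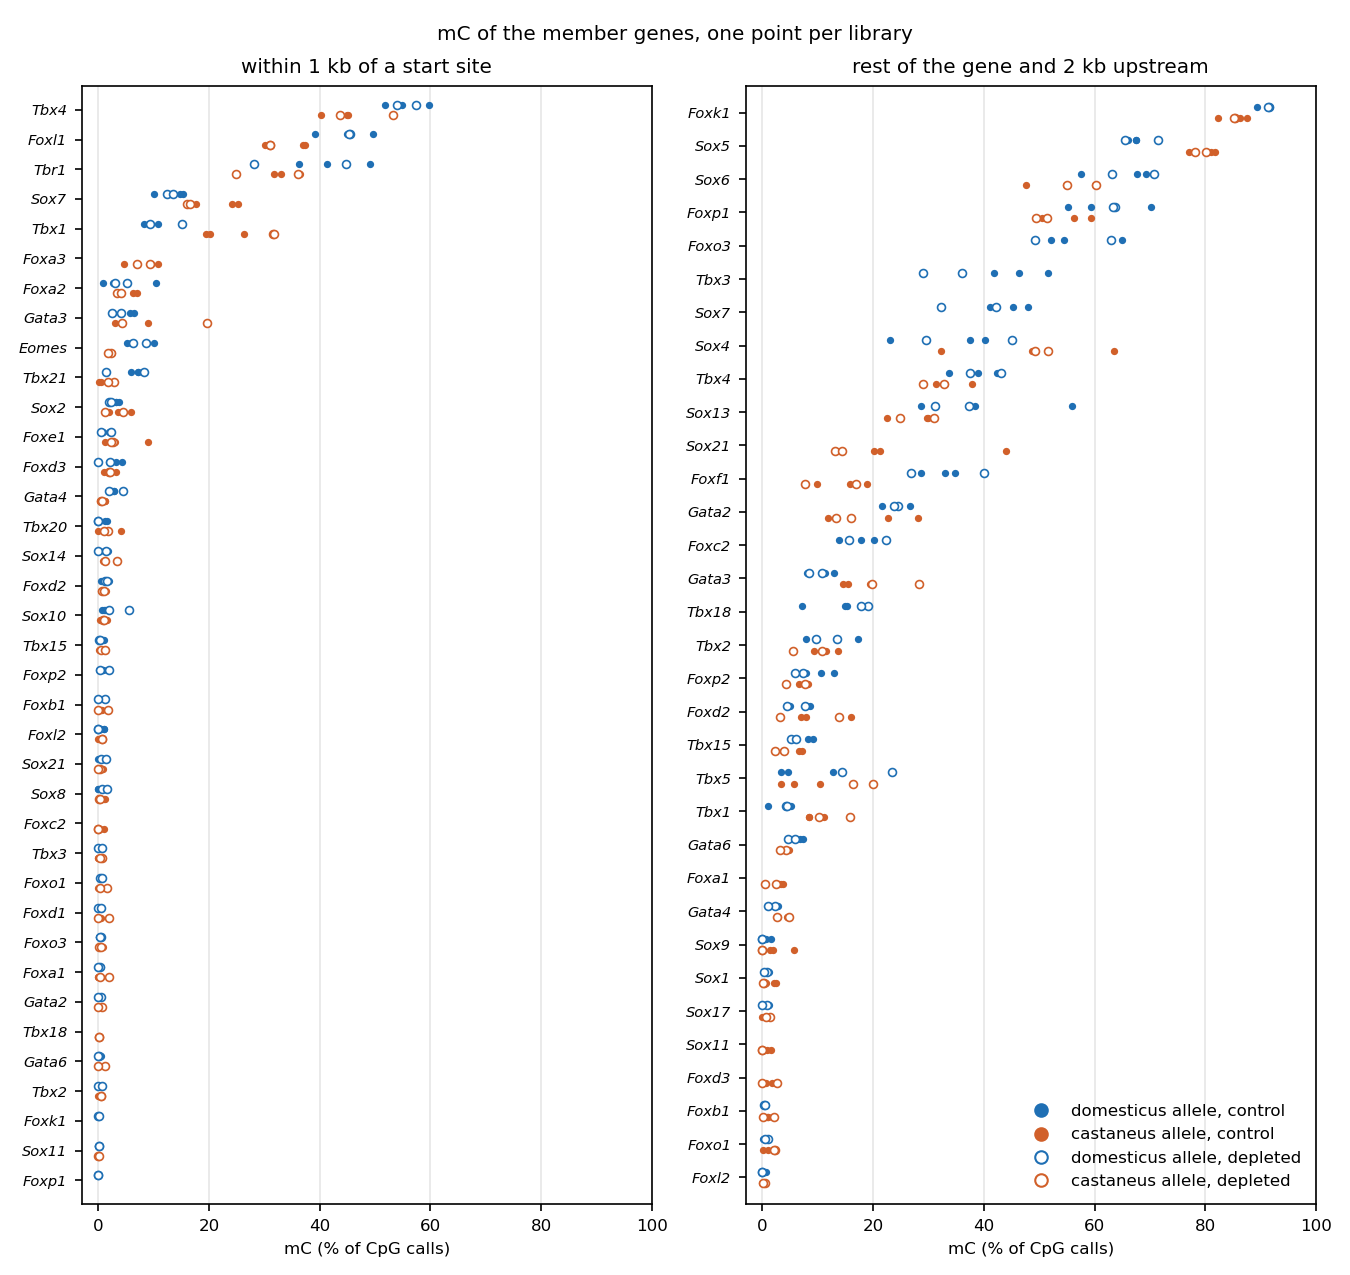
Methylated percentage of CpG calls (horizontal axes) for each member with 3 or more positions, within 1 kb of a start site (left) and in the rest of the gene and 2 kb upstream (right). Each point is 1 library, filled for control and open for depleted, in blue for the domesticus and orange for the castaneus allele. On the left most members sit near 0 and Tbx4, Foxl1 and Tbr1 stand at 24.9 to 59.8%, and on the right members spread from near 0 to Foxk1 at 82.3 to 91.7%.

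Between 2 and 5 kb from the nearest start site the difference was widest. Member positions there had median control mC of 5.62% (61 domesticus positions of 10 genes) and 8.13% (70 castaneus positions of 12 genes), against 69.1 and 68.1% over all genes. Between 1 and 2 kb the medians were 2.53 and 1.18% in members and 3.20 and 1.96% in all genes. Beyond 5 kb, 150 and 168 member positions of 13 genes each had medians of 65.1 and 63.8%, against 79.5 and 78.9%. Positions of 1 gene share reads and libraries, so these are descriptions with no test.

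**Figure D2:**
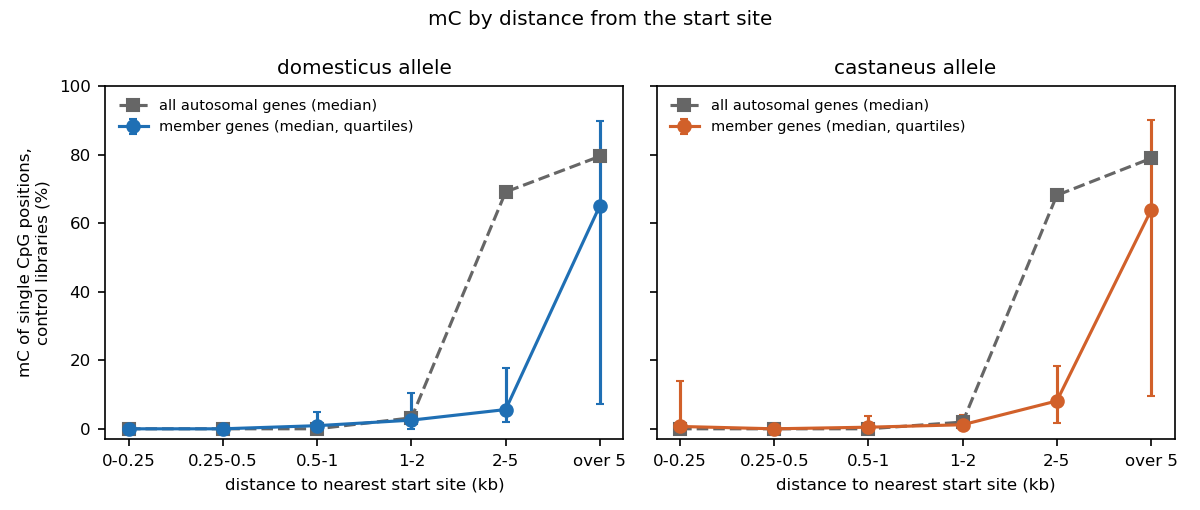
Median mC of single CpG positions in the control libraries (vertical axes, percent) by distance to the nearest start site of the gene (horizontal axes, kb), for the domesticus (left) and castaneus (right) allele. Coloured points are member genes, with bars from the lower to the upper quartile, and grey squares are all autosomal genes. The lines part between 2 and 5 kb, where members have medians of 5.62 and 8.13% and all genes 69.1 and 68.1%.

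The level also went with CpG density. Of the members' 108 domesticus and 101 castaneus clusters, the 60 and 59 with under 5% control mC lay in reference windows with medians of 28.5 and 28 CpGs per 300 bp. The 27 and 29 clusters between 5 and 50% had a median of 18 on each allele, and the 21 and 13 with 50% or more had 8 and 9. Those with 50% or more came from 8 and 5 genes, and 17 and 12 of them lay over 5 kb from a start site. Of those under 5%, 37 and 38 lay within 1 kb, so density and distance cannot be told apart here. RRBS favours dense CpGs, so sparse parts of these genes were read less.

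In the rest of the gene, the lowest members had mC near 0. Foxo1, an insulin-responsive factor, had 0.285% ± 0.154 (SD, n = 3), Foxl2, an ovarian factor, 0.328% ± 0.318, and Foxb1, a brain factor, 0.459% ± 0.237 on the domesticus allele in controls. On the castaneus allele the lowest were Foxl2 at 0.274% ± 0.274, Sox17, an endoderm and endothelial factor, at 0.606% ± 0.526, and Foxd3, a neural crest factor, at 0.769% ± 0.877. Their depleted means were 0 to 1.36%. The groups were apart at Foxo1, where the depleted libraries had 1.06 and 0.392% and the highest control 0.383% (quasi-binomial model, adjusted p = 0.967).

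The highest values in the rest of the gene went with low start-site mC at Foxk1, Foxp1, Foxo3 and Tbx3, but not at Tbx4. Foxk1 had 90.8% ± 1.23 (SD, n = 3) domesticus and 85.4% ± 2.74 castaneus mC in the rest of the gene, against 0.0581% at its domesticus start site. Sox5, a cartilage factor, had 67.0% ± 0.791 and 80.0% ± 2.52, its partner Sox6 64.9% ± 6.44 and 54.2% ± 6.27, and Foxp1 61.6% ± 7.76 and 55.4% ± 4.44. Foxo3, a stress-response factor, had 57.2% ± 6.79 and Tbx3, a limb and mammary factor, 46.6% ± 4.91 on the domesticus allele. Sox4, a factor of progenitor cells, had 48.2% ± 15.6 and Tbx4 34.1% ± 3.41 on the castaneus allele. The single start-site position of Sox6 had 7.37% domesticus and 4.87% castaneus mC in controls, and the start sites of Sox5 and Sox4 were not measured.

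Sox5 had 11 domesticus clusters outside start sites, 10 of them in introns. In controls, 10 of the 11 had 56.6 to 94.9% mC. The exception was the intron cluster shown above (chr6:144466878-144466936), with 22.3% domesticus and 36.6% castaneus mC and 14 CpGs per 300 bp. The mean of Sox4 was likewise a mixture, since its coding exon cluster (chr13:28952142-28952208) was near 0 and its upstream cluster (chr13:28954958-28955050) had 91.7% castaneus and 91.1% domesticus mC in controls.

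Single reads with 3 or more calls in a cluster were also examined. Where a cluster had 3 or more positions measured on both alleles, only calls at these positions were used. A read comes from 1 DNA molecule, but copies of a molecule made by PCR cannot be told apart from other molecules. At Sox11 and Tbx2, 98.6 to 99.8% of reads on either allele had no methylated call on average over the 5 libraries. At Tbr1, reads with some calls methylated and some not made up 75.8% of domesticus reads (66.7 to 90.3% over libraries, 74 to 103 reads each) and 66.5% of castaneus reads, and fully methylated reads 9.13 and 5.84%.

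Mixed reads were also the most frequent at Foxl1, Tbx4 and Tbx3. They made up 59.0 and 57.7% at Foxl1, 64.6 and 58.6% at Tbx4, and 65.9% at Tbx3 on the domesticus allele. Mixed reads also led at the Sox7 coding exon cluster (64.8 and 70.5%) and at Eomes on the domesticus allele (68.4%, against 37.4% castaneus). The Eomes shares came from 23 to 33 domesticus and 15 to 27 castaneus reads per library. Tbx1 varied by cluster on the castaneus allele. Mixed reads led at chr16:18588833-18588909 (92.0%, with a mean of 11.8 calls per read) and unmethylated reads at chr16:18582561-18582596 (64.9%). Unmethylated reads led at the Sox5 cluster on the domesticus allele (55.8% against 40.2% mixed), though not on the castaneus allele (28.5% against 59.1% mixed), and at the Sox21 cluster on the castaneus allele (62.4% against 28.1%). The Sox4 upstream cluster had no unmethylated read in any library, and 58.2 and 66.0% of its reads were fully methylated. Reads that were either fully methylated or fully unmethylated were thus the minority at Tbr1, Foxl1, Tbx4 and Tbx3. These shares depend on the calls per read, with means of 3 at Tbx4 and Sox4 and of 6.08 to 6.27 at Tbr1. Shares of different genes are therefore not on 1 scale. Whether the reads of an allele came from 1 or several cell types was not tested.

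**Figure D3:**
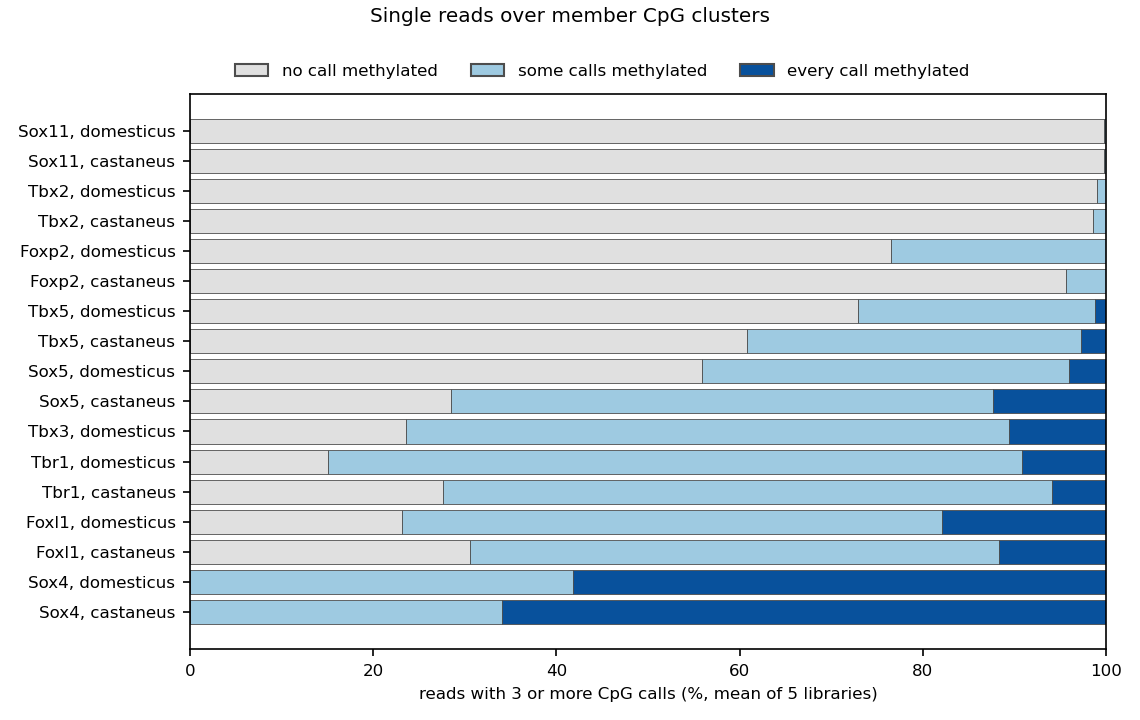
Shares of single reads (horizontal axis, percent, mean of 5 libraries) with no, some or every CpG call methylated, among reads with 3 or more calls in the cluster, by gene and allele. Sox11 and Tbx2 are almost wholly unmethylated, mixed reads lead at Tbr1 (75.8 and 66.5%), Foxl1 and Tbx3, and fully methylated reads lead at Sox4 (58.2 and 66.0%).

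No member passed the threshold between control and Setdb1 depleted libraries. The design asks whether less Setdb1 changes CpG methylation, and a quasi-binomial model of the calls with limma-moderated dispersion was fitted over all autosomal genes, with Benjamini-Hochberg adjustment in each class. Of 125 member regions (34 and 34 at start sites, 29 and 28 in the rest), 0 had an adjusted p under 0.05, as did 0.0% and 0.0% of all genes on the domesticus allele and 0.0137% at start sites and 0.0209% in the rest on the castaneus allele. limma on log2 ratios also called 0. Fisher's exact test on pooled calls, which ignores the spread between libraries, called 25. At start sites these were 1 of 34 domesticus and 6 of 34 castaneus members, where it called 5.82 and 6.51% of all genes. In the rest they were 6 of 29 and 12 of 28, where it called 20.99 and 21.44% of all genes. Whether members differed from all genes in these shares was not tested.

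At an unadjusted p under 0.05 there were 0 of 34 members at domesticus start sites (2.4% of all genes), 4 of 29 in the domesticus rest (5.79%), 2 of 34 at castaneus start sites (2.22%) and 3 of 28 in the castaneus rest (5.86%). The groups' libraries did not overlap at 6, 6, 9 and 7 members, where 14.1, 21.5, 14.5 and 21.5% of all genes did the same. Depleted libraries were the higher ones at 3, 3, 6 and 3 of these members, and at 6.55, 11.8, 7.33 and 11.1% of all genes. In single clusters, 0 of 108 domesticus and 0 of 101 castaneus member clusters passed (0.0377 and 0.0474% of all), with 3 and 6 at an unadjusted p under 0.05 (4.14 and 4.07% of all). Of 852 and 884 single positions 0 and 0 passed (0.0216 and 0.00179% of all), with 21 and 31 unadjusted (2.31 and 2.32%). With 3 and 2 libraries the smallest p of an exact permutation test is 0.1.

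Tbx5, a factor of the heart and forelimb, came closest. Its castaneus allele in the rest of the gene (gene at chr5:119832668-119885219) had 3.35, 10.5 and 5.75% mC (control) and 20.1 and 16.5% (depleted), from 657 to 1043 calls each. Every depleted library was above every control. The group means were 6.52% ± 3.62 (SD, n = 3) and 18.3% ± 2.56 (SD, n = 2). They differed by 11.7 percentage points ± 2.76 (SE; quasi-binomial model, p = 0.000173, adjusted p = 0.138).

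The domesticus allele of Tbx5 had 3.41, 4.65 and 12.7% (control) and 14.4 and 23.5% (depleted), again without overlap. The difference was 12.0 points ± 5.40 (SE; quasi-binomial model, p = 0.0224, adjusted p = 0.726). Without depleted 2 it was 7.46 points (adjusted p = 1). The values come from the 5 capitalised CpGs of the intron window shown, 1290 bp from the nearest start site of the gene. All 5 had a higher mean in depleted libraries on both alleles, from 5.99 to 26.8% against 2.28 to 10.5%. Reads with no methylated call were counted over the 5 positions measured on both alleles, all on the forward strand, with no test. Castaneus reads of the other strand were left out, which kept 22 to 47 castaneus and 23 to 53 domesticus reads per library. The castaneus shares were 65.2, 59.4 and 93.6% (control) and 58.3 and 27.3% (depleted), with depleted 1 just below control 2. Group means were 72.7 and 42.8% of castaneus reads and 78.4 and 64.8% of domesticus reads. On the domesticus allele these shares overlapped, since control 3 (60.5%) lay below both depleted libraries (68.8 and 60.9%).

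The Tbx5 call depended on the libraries and on the set of genes tested. Without control 2 the castaneus difference was 13.7 points and the adjusted p 0.0261, and the cluster, with an adjusted p of 0.0748 on all libraries, reached 0.00177. With start sites of any gene kept apart, in place of the gene's own, the adjusted p was 0.0286 at the same difference. Both alleles are read from the same DNA, so they are not separate replicates.

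The other T-box genes named by the size of their differences went in both directions. Tbx3, at the upstream window shown, had domesticus values of 51.6, 41.8 and 46.3% (control) and 28.9 and 36.0% (depleted), with every depleted library below the controls. The difference was -14.1 points ± 4.53 (SE; quasi-binomial model, p = 0.00814, adjusted p = 0.563). On the castaneus allele only 2 positions were measured, with 45.4% ± 8.04 (SD, n = 3) in controls and 43.5 and 19.5% in the depleted libraries.

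Tbx18, a factor of the epicardium and somites, had domesticus values of 7.25, 14.9 and 15.2% (control) and 19.0 and 17.9% (depleted) in the rest of the gene. The groups did not overlap, although control 1 stood well below the other controls, and the difference was 5.97 points ± 2.66 (SE; quasi-binomial model, p = 0.0462, adjusted p = 0.850). Without control 1 it was 3.37 points. At castaneus start sites Tbx1 had 19.4, 20.2 and 26.4% (control) and 31.5 and 31.7% (depleted), which differed by 9.64 points ± 2.21 (SE; quasi-binomial model, p = 0.0191, adjusted p = 1). With each Tbx1 position counted once it was 4.08 points (limma, adjusted p = 0.879), and with more than 20 calls per position 5.93 points. On the domesticus allele Tbx1 had 9.43% ± 1.31 (SD, n = 3) and 12.2% ± 4.16 (SD, n = 2), with overlapping groups. The start-site groups of Tbx21, a T cell factor, and Tbx15, a factor of the skeleton and skin, were apart on 1 allele each. Tbx21 had castaneus means of 0.783% (control) and 2.33% (depleted), and Tbx15 domesticus means of 0.773% and 0.249% (adjusted p = 1 for both). Without depleted 1 the difference of Tbx21 was 1.01 in place of 1.54 points.

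**Figure D4:**
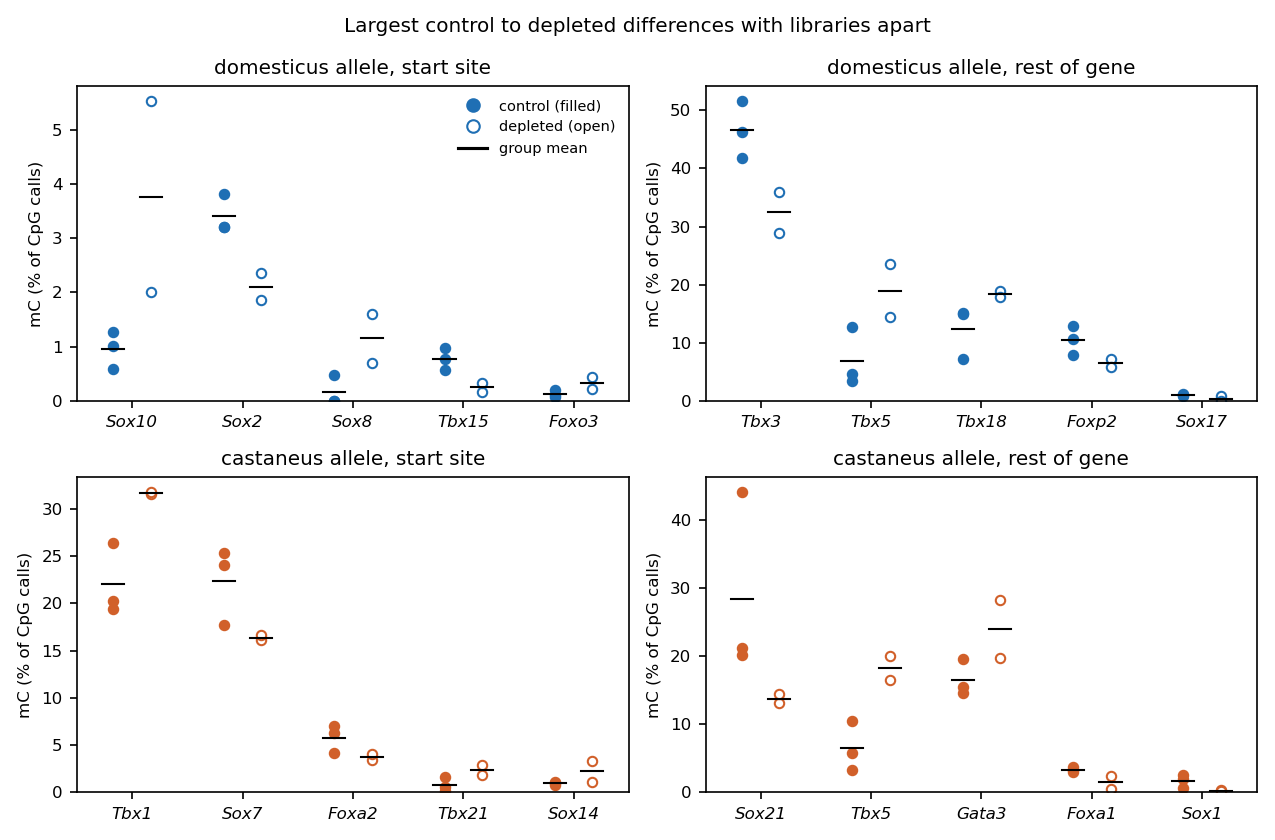
Methylated percentage of CpG calls (vertical axes) in single libraries for the members with the largest differences among those whose groups did not overlap and that had 5 or more positions, by allele and region. Filled points are controls, open points are depleted libraries and bars are group means. Tbx5 stands higher in the depleted libraries on both alleles (18.9 and 18.3% against 6.92 and 6.52%) and Tbx3 lower on the domesticus allele (32.5 against 46.6%), and none passed the adjusted threshold.

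Among Sox genes, the upstream cluster of Sox4 had castaneus values of 88.4, 93.8 and 92.9% (control) and 80.1 and 80.0% (depleted). The difference was -11.6 points and the groups were apart (quasi-binomial model, p = 0.00412, adjusted p = 0.740). Fully methylated reads made up at least 74.2% of castaneus reads in each control, 35.0% in depleted 1 and 70.6% in depleted 2. Each of these reads had 3 calls, which only the 3 reverse-strand positions could give. Castaneus mC there was 91.9, 89.5 and 89.5% (control) and 76.7 and 90.2% (depleted), and the groups overlapped. At the 2 forward-strand positions castaneus mC was 86.4, 97.0 and 94.9% (control) and 81.3 and 72.7% (depleted). Fully methylated reads made up at least 64.3% of domesticus reads in each control, 48.0% in depleted 1 and 30.8% in depleted 2. The domesticus shares came from 14 to 44 reads each. Sox7 had castaneus start-site values of 17.7, 25.3 and 24.1% (control) and 16.1 and 16.6% (depleted) (quasi-binomial model, p = 0.0360, adjusted p = 1). Its domesticus allele had 13.4% ± 2.88 (SD, n = 3) and 12.9% ± 0.794 (SD, n = 2).

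Sox21, a neural factor, had castaneus values of 44.0, 21.2 and 20.1% (control) and 13.1 and 14.4% (depleted). Most of its difference of -14.7 points rested on control 1, without which it was -6.90 points, and it was -7.32 points without reads marked by the sequencer's filter (all libraries, quasi-binomial model, p = 0.0772). The other Sox genes with groups apart at 5 or more positions, Sox10, Sox2, Sox8, Sox14, Sox17 and Sox1, had differences of -1.48 to 2.80 points. Sox8 was apart on both alleles in opposite directions, by 0.989 points (domesticus) and -0.691 points (castaneus). Leaving out either depleted library moved the differences of Sox10 (1.04 to 4.57 points), Sox14 (0.180 to 2.35) and Sox17 (-1.02 to -0.222), and that of Sox8 on the domesticus allele was 0.535 points without depleted 2.

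Among Forkhead and Gata genes, Foxp2, known for its part in vocal circuits, had domesticus values of 12.9, 7.88 and 10.6% (control) and 7.29 and 5.88% (depleted). The groups were apart by less than 1 point, and the difference was -3.88 points ± 1.61 (SE; quasi-binomial model, p = 0.0204, adjusted p = 0.716). These Foxp2 values cover 19 domesticus positions. At the 10 that were also measured on the castaneus allele the domesticus groups overlapped, with 7.51% in control 2 and 8.03% in depleted 1. Gata3, a factor of T cells and the ear, had castaneus values of 19.5, 14.5 and 15.4% (control) and 19.8 and 28.3% (depleted) (quasi-binomial model, p = 0.0818, adjusted p = 0.852). The difference of 7.53 points was 11.8 without depleted 1 and 3.29 without depleted 2. Its domesticus allele had 10.8% ± 2.48 (SD, n = 3) and 9.59% ± 1.68 (SD, n = 2). Foxa1, Foxa2 and Foxo3, whose groups were apart on 1 allele, had differences of -2.06 to 0.209 points. Leaving out either depleted library gave -2.82 to -0.890 points at Foxa1 and 0.0950 to 0.322 at Foxo3.

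Between alleles, 6 member regions passed the adjusted threshold. Only Foxp2 and Gata6 of these were also called with each position counted once. The alleles were compared within each library, over positions measured on both, which leaves out the clusters read on only 1. At start sites 1 of 26 members passed the adjusted threshold, against 1.79% of 5027 genes, and in the rest 5 of 20 did, against 10.4% of 2910 genes. Castaneus mC was lower at Foxl1, Foxp2 and Gata6 and higher at Sox5, Sox4 and Tbx1, in 5 of 5 libraries each. Of all genes in the rest, 5.43% were called with castaneus higher and 4.95% with domesticus higher.

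Foxp2 had the smallest p. At the 10 positions of its upstream window measured on both alleles, domesticus values were 8.18, 7.51 and 9.06% (control) and 8.03 and 6.96% (depleted). The castaneus values were 1.50, 0.876 and 0.971% and 1.30 and 0.943%. The alleles were apart, with a mean difference of -6.83 points (castaneus minus domesticus; quasi-binomial model with library as a block, adjusted p = 3.31e-05). Castaneus was lower on both strands in 5 of 5 libraries, by a mean of 4.15 points on the forward and 8.72 on the reverse strand of the genome. No methylated call was seen in 76.5% of the domesticus reads and 95.6% of the castaneus reads, and no read was fully methylated.

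The domesticus methylation of Foxp2 was unequal along the window. CpGs 7 and 8 of the capitalised ones, counted from 1 at the 5′ end, had means of 17.0 and 16.4% over the 5 libraries, and CpGs 4 and 5 had 1.44 and 5.09%. On the castaneus allele, CpGs 7 and 8 had 2.90 and 3.93%. CpGs 9 to 11 were measured on the domesticus allele only, with 4.49 to 10.9%.

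Gata6 differed in the same direction, with domesticus mC of 6.60% ± 1.10 (SD, n = 5) and castaneus mC of 2.83% ± 0.389 (SD, n = 5). The alleles were apart, as at 8.04% of genes in the rest, and the difference was -3.76 points over 44 positions (quasi-binomial model with library as a block, adjusted p = 0.000157). Castaneus was again lower on both strands of its largest cluster, in a coding exon, in 5 of 5 libraries. Foxp2 and Gata6 were the only members of the 6 that were also called with each position counted once (adjusted p = 0.0121 and 0.0407 by limma).

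Sox5 had domesticus values of 62.4, 66.2 and 68.2% (control) and 61.3 and 72.7% (depleted). Its castaneus values were 78.1, 77.8 and 71.0% and 75.1 and 75.2%. The alleles overlapped over all libraries, though castaneus was higher within each. The difference was 9.30 points (quasi-binomial model with library as a block, adjusted p = 0.00247). The intron cluster shown was called over all clusters, with 21.6% domesticus and 40.2% castaneus mC (adjusted p = 0.00112). Castaneus was higher there by 19.2 points on the forward strand in 5 of 5 libraries. On the reverse strand it was higher by 19.9 points in 4 of 5. Control 3, with 44.1% domesticus mC on that strand, had the lower value on the castaneus allele. The cluster has low mC for the gene and held 23.7 to 36.9% of domesticus and 22.5 to 26.3% of castaneus calls. Its domesticus share was the higher one except in depleted 2. Part of the region's difference thus came from how the calls were spread over clusters. With more than 20 calls per position the difference of the region was 3.58 points (adjusted p = 0.349).

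The Foxl1 difference changed sign with the strand. The region had domesticus values of 44.9, 39.2 and 49.6% (control) and 45.5 and 45.3% (depleted), and castaneus values of 41.2, 28.9 and 43.4% and 31.7 and 34.7%. The difference was -8.92 points (quasi-binomial model with library as a block, adjusted p = 0.0124). In the cluster shown, the 6 reverse-strand positions had 65.0% ± 6.85 (SD, n = 5) domesticus and 32.0% ± 7.03 (SD, n = 5) castaneus mC. The 5 forward-strand positions had 42.4% ± 3.77 (SD, n = 5) and 51.8% ± 10.3 (SD, n = 5), the opposite order in 4 of 5 libraries. Some CpGs were read on both strands, so the call at Foxl1 depends on the mix of strands, and the cause was not tested. The call was lost without control 2, depleted 1 or depleted 2 (adjusted p = 0.0809 to 0.0975).

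Tbr1 also differed by strand. Its cluster had 45.3% domesticus and 36.7% castaneus mC and was called over all clusters (quasi-binomial model with library as a block, adjusted p = 0.0337), though not without control 2 or depleted 2. The 5 forward-strand positions had 56.2% ± 9.65 (SD, n = 5) domesticus and 32.7% ± 9.44 (SD, n = 5) castaneus mC, castaneus being lower in 5 of 5 libraries. The 7 reverse-strand positions had 41.9% ± 10.3 (SD, n = 5) and 39.9% ± 9.27 (SD, n = 5), with castaneus lower in 3 of 5. As a region Tbr1 was not called (-7.46 points, lower in 5 of 5 libraries, adjusted p = 0.152).

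The Sox4 call came from how the calls were spread over 2 clusters. The region had domesticus values of 23.0, 40.2 and 37.6% (control) and 29.6 and 45.2% (depleted), and castaneus values of 32.3, 63.6 and 48.7% and 49.3 and 51.6%. The difference was 14.0 points (quasi-binomial model with library as a block, adjusted p = 0.00316). Neither cluster was called. The methylated upstream cluster had 87.8% domesticus and 87.0% castaneus mC, and the coding exon cluster 0.0601 and 0%. The upstream cluster held 40.4% of the domesticus and 56.6% of the castaneus calls. With each position counted once, the alleles had a difference of -0.0478 points (limma, adjusted p = 0.994).

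Tbx1 had domesticus values of 5.03, 5.95 and 1.75% (control) and 7.50 and 7.55% (depleted). Its castaneus values were 10.1, 6.85 and 9.35% and 10.9 and 11.2%. The alleles overlapped over all libraries, and the difference was 4.14 points (quasi-binomial model with library as a block, adjusted p = 0.0335). The clusters of the region did not all go this way. Castaneus was higher in 3 of 5 libraries at chr16:18581862-18581930 and in 4 of 5 at chr16:18582561-18582596. At chr16:18591775-18591801 it was higher in 1 of 5, with 2.75% domesticus and 1.93% castaneus mC. The call was lost without control 1, control 3, depleted 1 or depleted 2 (adjusted p = 0.0539 to 0.143).

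**Figure D5:**
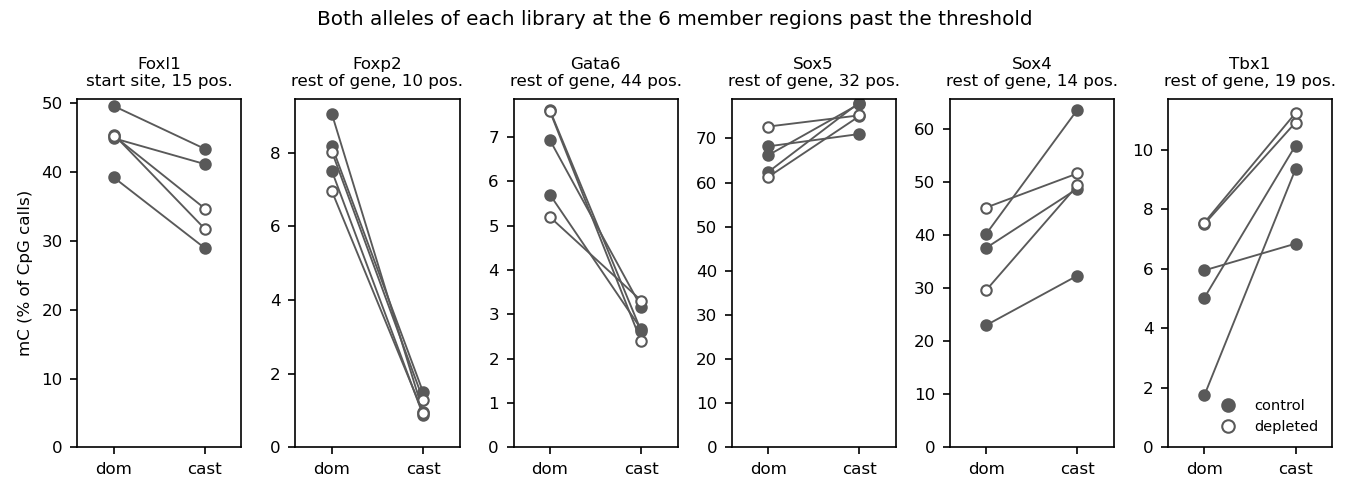
Methylated percentage of CpG calls (vertical axes) on the domesticus (dom) and castaneus (cast) allele of each library at the 6 member regions with an adjusted p under 0.05. Lines join the alleles of 1 library, filled for control and open for depleted. All lines fall from left to right at Foxl1, Foxp2 and Gata6 and rise at Sox5, Sox4 and Tbx1, and the alleles are apart at Foxp2 and Gata6 only.

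Over clusters, 5 of 60 members' clusters were called between alleles, against 5.5% of 10422. They lay in Foxp2, Gata6, Foxl1, Sox5 and Tbr1. Of the larger region differences that were not called, Eomes, a factor of early mesoderm, was lower on the castaneus allele by 4.21 points and in 5 of 5 libraries (adjusted p = 0.0968). Tbx4 was lower by 6.60 points in 5 of 5 libraries (adjusted p = 0.945), Foxk1 by 4.60 points (adjusted p = 0.279), and Foxa2, a pioneer factor of the endoderm, was higher by 4.38 points in 5 of 5 (adjusted p = 0.561), and by 2.66 points without control 1. Gata3, Sox6 and Tbx5 were higher on the castaneus allele by 5.82, 7.76 and 7.37 points (adjusted p = 0.762, 0.127 and 0.342). Gata3 had 2.36 points without depleted 2 and Sox6 4.90 points without control 1. Tbx5 passed without control 3 (11.7 points, adjusted p = 0.0428), but its 5 compared positions were all on the forward strand. The castaneus positions of the other strand were left out. With them, the window's CpGs had means over the 5 libraries of 3.76 to 15.3% castaneus and 5.09 to 16.1% domesticus mC.

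Whether depletion acted differently on the alleles was tested as an interaction. In the quasi-binomial model 0 of 26 start-site regions and 0 of 20 other regions of members passed, as did 0.0% and 0.0% of all genes. At an unadjusted p under 0.05 there were 2 members at start sites, Sox10 and Gata3 (adjusted p = 1 for both), against 1.53% of all genes, and none in the rest, against 4.64%. Only positions read on both alleles entered, which were 6 of the 18 castaneus start-site positions of Tbx1 and 10 of the 13 of Sox7.

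A fixed list of 28 other genes of the 4 families was described beside the members. Measured at start sites were 15 on each allele, with median control mC of 0.657 and 0.586%, and in the rest 8 on each, with 5.34 and 3.39%. None passed the threshold for depletion. At an unadjusted p under 0.05 there were 1 and 0 at domesticus and castaneus start sites, against 2.4 and 2.22% of all genes. In the rest there were 1 and 1, against 5.79 and 5.86%. Groups were apart at 2 and 3 genes at start sites (14.1 and 14.5% of all genes) and 1 and 3 in the rest (21.5% each). Foxc1 in the rest had 24.2% (control) and 41.7% (depleted) domesticus and 5.00 and 9.91% castaneus mC, apart on both. Foxp4 and Foxq1, apart there on the castaneus allele, were lower when depleted. The highest at start sites was Sox30, a germ cell factor, with 84.6% domesticus and 65.4% castaneus mC.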

How the data were processed

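Per the study's methods, the authors trimmed single-end reads with Trim Galore, mapped them with Bismark to an mm10 genome masked at strain differences, ignored 7 bases at the 5′ and 8 at the 3′ end, and sorted them by allele with SNPsplit, leaving out C/T differences, before CpG calling. The deposited values are methylation calls (Bismark extractor 0.13.0 per the file headers): each line is 1 CpG cytosine in 1 read, methylated or not, as counts of calls with no normalization or coverage filter. Other deposited columns were not used. PCR duplicates cannot be recognised in these calls, so intervals and upper limits cover counting error only; the upper limit for a count of 0 is 3 calls of the total. Reads marked by the sequencer's filter, 5.34 to 5.66% of calls, were kept.

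Calls were summed per position, library and allele over 10 files, and positions needed at least 10 calls in each library. Gene regions and clusters needed 3 positions. Calls were fitted by a quasi-binomial logistic model with Pearson dispersion moderated as in limma 3.58.1, not under 1, with an F test, two-sided, and Benjamini-Hochberg adjustment in each set at 0.05. The dispersion prior (3.08 to 3.83 times counting error) came from features expected to hold at least 5 calls of each kind. The allele model had library as a block. The model was tested on simulated data. Alternatives were limma on log2 ratios with a pseudocount of 0.5, Fisher's exact test, other call minimums, other start sites, each position counted once, a replicate block and leaving out libraries. Python 3.11.15, numpy 2.4.6, scipy 1.17.1 and pandas 2.3.3 were used.

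Genes named were every member past the threshold, and by allele and region the 5 largest group differences without overlap among members with at least 5 positions, the 6 highest and 3 lowest levels and the 6 largest allele differences. The members and lists were chosen with earlier results of these data known. Sequences were read from the GRCm38 reference, and none is shown for Gata6.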

Additional observations from a re-analysis of the deposited data

How the results depend on the processing

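The depletion results for members were 0 of 125 regions, 0 of 209 clusters and 0 of 1736 positions. Fisher's exact test on pooled calls, which treats the calls of all libraries as independent, called 25, 34 and 50. The 34 clusters were 13 of 108 domesticus and 21 of 101 castaneus ones, where it called 10.18 and 10.06% of all clusters. The 50 positions were 19 of 852 and 31 of 884, where it called 2.46 and 2.36% of all positions. Keeping start sites of any gene apart called 1 region, Tbx5, and leaving out 1 library in turn called 0 to 1 regions and 0 to 1 clusters, the 1 being Tbx5 without control 2. Over all genes the counts were 2 regions, 16 clusters and 38 positions, and moved to 0 with limma on log2 ratios and to 2863, 3803 and 7947 with Fisher's test. Leaving out 1 library gave 1 to 23 regions, 4 to 46 clusters and 31 to 69 positions, the lowest without depleted 1 for regions and clusters and the highest without control 2 for these and without control 1 for positions.

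Of 46 member regions compared between alleles, 6 were called. With limma on log2 ratios 2 were called, with each position counted once 2, with more than 20 calls per position 3 and with at least 40 calls 1 of the 17 left. Leaving out 1 library gave 4 to 6. Over all genes, 90 start-site and 302 other regions were called on all libraries. With 1 library left out, 302 to 335 regions of both classes together were called. Counting each position once was added after seeing the data, as was the split by strand. Of 60 clusters 5 were called, 2 in control libraries only, 1 with limma, 0 of the 16 left with at least 40 calls and 4 to 6 with 1 library left out. Of all 10422 clusters 573 were called, and 421 to 505 with 1 library left out. Counts over all genes under the other settings are not given here. A general loss of calls there cannot be told apart from a loss at members. Reversed were Foxl1 with at least 40 calls (9.43 points, adjusted p = 0.363), where the 5 forward-strand positions remain, and Sox4 with each position counted once (-0.0478 points). The median member level in the rest of the gene moved from 11.6 to 13.4% (domesticus) and from 8.45 to 9.50% (castaneus) with each position counted once, and to 9.28 and 5.59% with more than 20 calls, which left 24 and 23 members.

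Control and depleted libraries share the numbers 1 and 2. Deviations of same-numbered libraries from their group means correlated at -0.0583 and 0.00145 on the domesticus and -0.0123 and 0.0199 on the castaneus allele over gene regions. With 2 pairs and no stated litter or batch, whether they share more than a number cannot be told. With the number as a replicate block, 0 member regions, 0 clusters and 0 positions were called, and over all genes 30 regions, 49 clusters and 78 positions.

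Among the values recomputed for single members and the counts over all genes, 432 kept their direction and call or stayed within 1.5 times, 33 counts over all genes moved, 20 member values lost and 14 gained the call and 2 were reversed. Of the members' counts and medians, 53 stayed and 17 moved. The prior spread estimated for the fits was 3.08 to 3.83 times counting error, with at most 3 libraries a group.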
